A study of Rattus norvegicus with 7 samples.

Results

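Genes known from smooth muscle cells and pericytes, the contractile cells of vessels, were followed through the week after embolic stroke in the rat. The set held 10 genes: Tagln, Tagln2, Acta2, Myl9, Cnn1, Des, Tpm2, Pdgfb, Pdgfrb and Rgs5. Members were found by their symbol in the probe annotation of the array, and each gene was read from its brightest probe. Of the 10 genes, 7 were on the array, each with 1 probe, among 13337 genes in all. Acta2, Tpm2 and Pdgfrb were not on the array and were not analysed here.

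Vascular smooth muscle cells wrap arteries and arterioles, and pericytes sit on brain capillaries beneath the basement membrane. Both regulate vessel diameter through actin and myosin, and endothelial cells recruit pericytes by secreting PDGF-B, the product of Pdgfb, which binds the receptor encoded by Pdgfrb. Serum response factor, together with the coactivator myocardin, drives many genes of the smooth muscle cytoskeleton, and several of these genes are also known to be used by activated fibroblasts, glia and immune cells.

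All RNA came from male Wistar rats weighing 280 to 320 g, and 400 ng of it was labelled for each array. The groups were normal rats that were not occluded and rats at 12, 24, 48, 72, 120 and 168 hrs after embolic middle cerebral artery occlusion (eMCAo), in which a homologous clot was injected to block the artery. No other treatment or allele is given in the labels, and age is not given. Each group had 1 Illumina bead array, all 7 are labelled as ischemic brain with no region named, and the sources do not tell pooled from single animals.

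Each array held 22523 probes. Between 8656 and 9066 genes were detected per array, which means brighter than a limit of 8.72 to 10.1 intensity units set from that array's own values below 0. Levels were given as log2 of the background-corrected intensity plus 16, made comparable between arrays by quantile normalization, and differences and folds were taken on that scale, which understates the change of dim genes. The 2 most similar arrays, 72 and 120 hrs, differed with an SD of 0.31 (log2) over genes. The arrays were 7 positions of 1 chip in order of time, so position and time cannot be told apart. Single arrays allow no test against normal. In its place a rule of size was used: a gene was called higher or lower if it differed from the normal array by 2-fold or more and either of both arrays detected it. The rule took the level of an undetected array as it stood. Folds given as at least, taken against the lowest detected level, can thus be under 2 for a called gene.

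Sequence upstream of 2 members is shown because these were the 2 members past the 2-fold rule at 12 hrs, the first time point. The promoter table of RefSeq (build GRCr8) held 7 of the 10 members, among them 5 of the 7 on the array. Tagln, Myl9 and Pdgfrb were not matched. Tagln2 lies on chromosome 13 (87499350 to 87506328) and Des on chromosome 9 (84299626 to 84307344), both on the plus strand. The stretches run up to the annotated start of each gene, chr13:87499158-87499349 for Tagln2 and chr9:84299376-84299625 for Des. Capitals mark the MCAT motif, CATTCC, which TEAD factors bind.

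Tagln2 upstream: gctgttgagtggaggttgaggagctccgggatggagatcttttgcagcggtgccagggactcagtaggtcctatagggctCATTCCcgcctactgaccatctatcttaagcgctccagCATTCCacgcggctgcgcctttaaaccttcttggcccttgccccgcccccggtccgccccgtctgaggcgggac

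Des upstream: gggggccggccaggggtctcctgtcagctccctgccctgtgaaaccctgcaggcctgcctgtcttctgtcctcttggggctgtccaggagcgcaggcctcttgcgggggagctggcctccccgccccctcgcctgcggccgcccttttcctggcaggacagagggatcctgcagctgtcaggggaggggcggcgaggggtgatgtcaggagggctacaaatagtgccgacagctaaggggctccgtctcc

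The window searched ran from 250 bases before to 50 bases after the start, on both strands. MCAT occurred upstream of Tagln2 at -170 to -165 and at -132 to -127, counted from the start site in the table, which lies downstream of the annotated gene start, and upstream of Acta2, so that 2 of the 7 member promoters (28.6%) held it, against 4749 of 33469 (14.2%) of all promoters. The CArG box, to which serum response factor binds, was searched only in its strict form, CCWWWWWWGG with W for A or T. It was in 0 of the 7 member promoters and in 548 (1.64%) of all. With so low a share, and looser forms not searched, 0 of 7 does not show that the members lack such sites. Both motif counts are matches of letters in this window.

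By their largest difference from normal over the 6 times, the actin-binding transgelins came first among the 4 detected members, although at 12 hrs Des and Myl9, and at 168 hrs Myl9, differed more than Tagln. Tagln encodes transgelin (SM22), an actin-binding protein that is abundant in smooth muscle, and its level was 7.47 on the normal array and 7.48, 10.59, 10.66, 10.64, 8.70 and 7.79 at 12, 24, 48, 72, 120 and 168 hrs. The deposited intensities were 134 on the normal array and 142, 1465, 1532, 1823, 423 and 186 in the same order of time. The arrays of 24, 48 and 72 hrs stood high, while 12 hrs lay at the level of the normal array. Relative to normal, Tagln stood at 1.01-fold, 8.67-fold, 9.13-fold, 8.98-fold, 2.35-fold and 1.25-fold at 12, 24, 48, 72, 120 and 168 hrs. In this piece of tissue, more cells of a type and more RNA per cell cannot be told apart.

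The gain of Tagln came within 1 interval. The 24 hrs array lay 8.63-fold above the 12 hrs array. The levels of 24, 48 and 72 hrs then differed by at most 0.07 (log2) from one time to the next, less than the 0.31 SD between the closest arrays. The 120 hrs array was 3.83-fold lower than that of 72 hrs, and the 168 hrs array 1.88-fold lower than that of 120 hrs. Ordered by difference from normal, Tagln ranked 38 among 9339 genes detected on either array at 24 hrs, 48 among 9368 at 48 hrs, 69 among 9409 at 72 hrs and 663 among 9389 at 120 hrs, but 4166 among 9190 at 12 hrs. Its range over the 7 arrays was 3.19 (log2), and 1.65% of the 10067 genes detected on any array had a range at least as wide.

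Tagln2, which encodes the related transgelin-2 found in many non-muscle cells, had levels of 8.32 on the normal array and 9.33, 10.39, 10.48, 10.39, 10.15 and 8.89 at 12, 24, 48, 72, 120 and 168 hrs. Its intensities were 262 on the normal array and 584, 1289, 1362, 1510, 1189 and 426. All 6 arrays after eMCAo lay above normal, and the highest 4 were those of 24 to 120 hrs. Relative to normal, Tagln2 stood at 2.01-fold, 4.19-fold, 4.47-fold, 4.18-fold, 3.55-fold and 1.48-fold in order of time. The transgelins differed in timing. Tagln2 had passed the rule at 12 hrs, when Tagln was at the normal level, and between 72 and 120 hrs it was 1.18-fold lower at 120 hrs, against 3.83-fold for Tagln. Its drop came in the last interval, with 168 hrs 2.40-fold below 120 hrs. Cross-hybridisation between the 2 related transcripts was not tested.

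**Figure D1:**
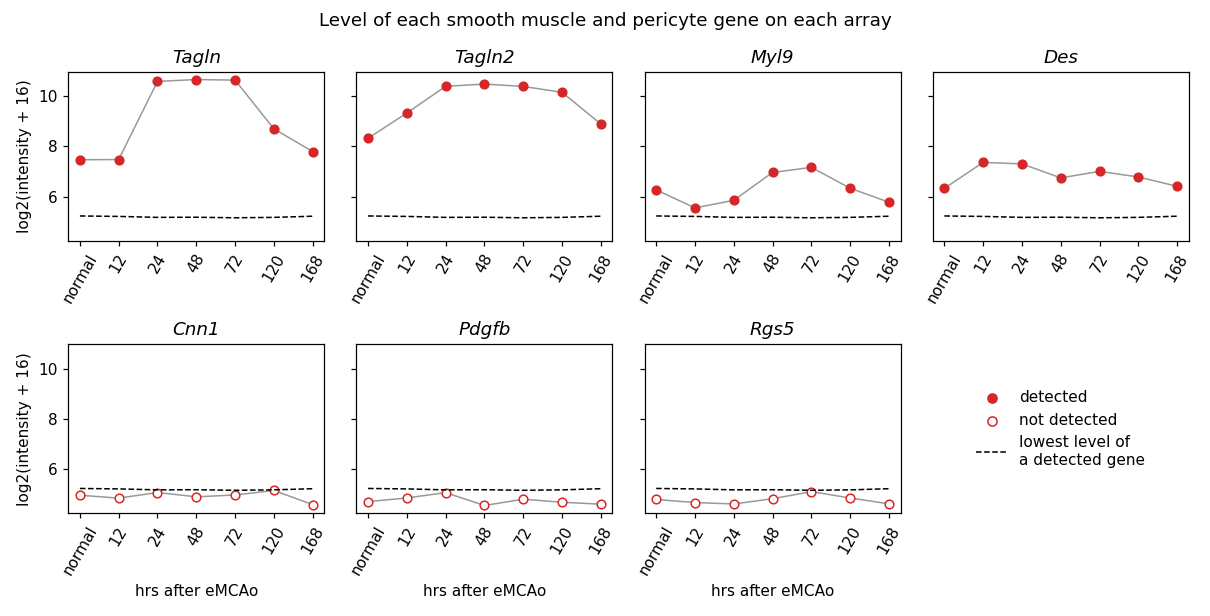
Level of the 7 genes on the array, as log2(intensity + 16), against time after eMCAo in hrs with the normal array at the left. Filled points were detected, open points were not, and the dashed line is the lowest level of a detected gene on each array. Tagln and Tagln2 stand high from 24 to 72 hrs, Myl9 is highest at 72 hrs, Des is highest at 12 hrs, and all points of Cnn1, Pdgfb and Rgs5 are open.

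Of the other contractile members, Myl9 encodes the regulatory light chain of smooth muscle myosin, whose phosphorylation starts contraction. Its level was 6.28 on the normal array and 5.55, 5.86, 6.97, 7.17, 6.34 and 5.78 at 12, 24, 48, 72, 120 and 168 hrs, and its intensities were 43.5 and then 19.6, 31.2, 96.5, 133, 60.4 and 24.7. It lay below normal at 12, 24 and 168 hrs and above it at 48 and 72 hrs. At 12, 24 and 168 hrs Myl9 was below normal by 1.65-fold, 1.34-fold and 1.41-fold, at 48 and 72 hrs it was above normal by 1.61-fold and 1.86-fold, and at 120 hrs it was at 1.04-fold. None of these differences reached 2-fold. From its lowest array, 12 hrs, to its highest, 72 hrs, Myl9 spanned 3.06-fold, and 9.22% of detected genes had at least that range. Its widest step was 2.15-fold, 48 hrs above 24 hrs.

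Des encodes desmin, the intermediate filament protein of muscle cells, which pericytes also contain. Its level was 6.33 on the normal array and 7.37, 7.31, 6.75, 7.01, 6.79 and 6.41 at 12, 24, 48, 72, 120 and 168 hrs, and its intensities were 46.1 and then 130, 130, 80.3, 116, 92.9 and 53.2. Des was highest on the earliest arrays and close to normal at 168 hrs. Relative to normal it stood at 2.05-fold, 1.97-fold, 1.34-fold, 1.60-fold, 1.37-fold and 1.06-fold in order of time. Its range of 1.04 (log2) was matched or passed by 21.8% of detected genes.

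The remaining 3 members on the array were detected on 0 of 7 arrays. Cnn1 encodes calponin, an actin-binding protein of differentiated smooth muscle, and its intensities lay between -2.89 (168 hrs) and 9.14 (120 hrs). Those of Pdgfb lay between -3.51 (48 hrs) and 6.54 (24 hrs). Those of Rgs5, a regulator of G-protein signaling that marks brain pericytes, lay between -2.47 (24 and 168 hrs) and 8.02 (72 hrs). No level or fold was read for these genes, since all their values lay under the detection limits.

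Defining markers of both cell types that are not members were read as well. A gene that is not expressed and a probe that works poorly give the same result, and the probes were not tested. Markers that were not detected therefore do not show whether a cell type was present. For smooth muscle, Lmod1 and Mylk were on the array and detected on 0 of 7 arrays, Myh11 was not on it, and Smtn, which encodes smoothelin, was detected on all 7 but its differences from normal stayed between -0.39 and 0.26 (log2). For pericytes, Kcnj8 and Abcc9, the subunits of a potassium channel of brain pericytes, were detected on all 7 arrays with differences between -0.39 and 0.00, and Notch3 was detected on 0. Vtn, which encodes vitronectin, had differences below 0 at all 6 times, the largest 3.87-fold at 24 hrs. Among the defining pericyte markers, 2 were past the rule upward: Anpep, which encodes aminopeptidase N of pericytes and myeloid cells, from 24 to 168 hrs with 8.65-fold at 72 hrs, and Cspg4, which encodes the NG2 proteoglycan of pericytes and oligodendrocyte precursors, at 120 hrs (2.34-fold) and 168 hrs (2.02-fold). The defining pericyte markers thus ran in different directions. Of the defining smooth muscle markers only Smtn was detected and could be called, and it was not past the rule at any time.

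**Figure D2:**
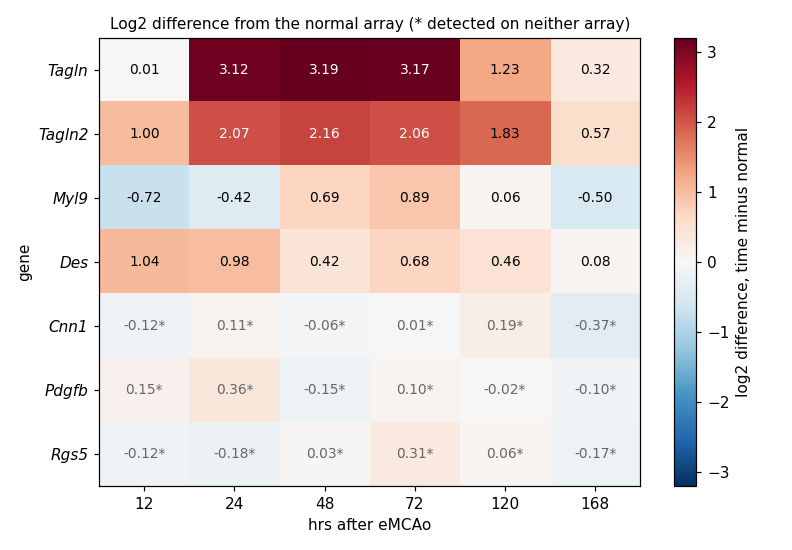
Log2 difference of each of the 7 genes from the normal array (rows) at each time after eMCAo (columns, hrs), with the value in each cell; red is higher and blue lower than normal, and an asterisk marks a gene detected on neither array. Tagln and Tagln2 carry the deepest red from 24 to 72 hrs, and Myl9 is the one detected gene with blue cells.

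Counted together, 2 of the 4 detected members were at least 2-fold higher than normal at 12 hrs, where 3.16% of genes detected on either array were. They were Tagln2 and Des, which were also the members just inside the rule, and Des at 24 hrs lay just outside it. With an offset of 50 in place of 16 the count at 12 hrs was 0. At 24, 48, 72 and 120 hrs the 2 members that were higher were Tagln and Tagln2, beside 4.55%, 6.04%, 8.28% and 9.09% of all genes, and at 168 hrs 0 members were higher beside 5.01%. No detected member was at least 2-fold lower at any time, beside 0.903%, 2.69%, 2.63%, 4.01%, 4.78% and 0.914% of genes in order of time. The median difference over the 4 detected members was 0.51, 1.52, 1.42, 1.48, 0.84 and 0.20 (log2), beside -0.04, -0.02, -0.04, -0.06, -0.07 and -0.06 over all detected genes. With 4 genes, 2 of them paralogs, these counts describe the genes and not a pathway.

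Scaling moved the sizes and turned no sign of the 4 detected members. Without normalization between arrays detected genes had a median shift of 0.18 (log2) at 72 hrs and 0.13 at 120 hrs, and of all genes past the rule 74.1%, 86.9% and 82.1% were higher at 24, 72 and 120 hrs, in place of 62.9%, 67.4% and 65.5%. On the authors' values alone the shares were 74.1%, 85.7% and 80.5%, and with median scaling 80.4% at 72 hrs. Over 6 other ways of processing, Tagln was higher than normal by 7.44-fold to 9.84-fold at 24 hrs, by 7.83-fold to 10.3-fold at 48 hrs, by 7.70-fold to 12.2-fold at 72 hrs and by 2.13-fold to 2.92-fold at 120 hrs. Tagln2 was 1.91-fold to 2.15-fold higher at 12 hrs and 3.88-fold to 5.48-fold at 72 hrs. Of the 6 settings, the mean of probes could not differ for the members, since each has 1 probe. Myl9 was also past the rule at 72 hrs in 4 of these 6 settings: median scaling (1.06, log2), no normalization (1.18), no further background correction (1.0006) and the authors' values (1.32). Des was past it at 24 hrs in the same 4 settings (1.04 to 1.23) and at 72 hrs on the authors' values (1.08).

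Arrays of the recovery phase (48, 72, 120 and 168 hrs, n = 4) were compared with those of the acute phase (12 and 24 hrs, n = 2) by limma, a linear model fitted to 9449 genes, with Benjamini-Hochberg adjustment. Times within a phase served as its replicates, so the p-values do not separate time from variation between animals. Of all genes 0 (0%) passed an adjusted p of 0.05 in either direction, with 2212 (23.4%) at an unadjusted p under 0.05 and a lowest adjusted p of 0.0570 in limma. Other settings called between 0 and 13 genes, except that 571 were called without the 48 hrs array, and 0 members were called in every setting.

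Des was the member with the smallest p. Its level was 6.74 ± 0.25 in recovery (SD, n = 4) and 7.34 ± 0.04 in acute arrays (SD, n = 2), a difference of -0.60 (SE 0.18, 95% interval -1.02 to -0.17, limma adjusted p = 0.12). All 4 recovery arrays were below both acute arrays, and in 34.3% of the genes fitted the phases did not overlap. Myl9 averaged 6.56 ± 0.63 in recovery and 5.71 ± 0.22 in acute arrays, a difference of 0.86 (SE 0.38, 95% interval -0.04 to 1.75, limma adjusted p = 0.23). Its phases overlapped at 168 hrs.

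The transgelins were spread widely within both phases. Tagln averaged 9.45 ± 1.44 in recovery and 9.03 ± 2.20 in acute arrays, a difference of 0.42 with a 95% interval of -2.14 to 2.97 (limma adjusted p = 0.84). Tagln2 averaged 9.98 ± 0.74 in recovery and 9.86 ± 0.75 in acute arrays, a difference of 0.12 with an interval of -1.04 to 1.28 (limma adjusted p = 0.91). The acute arrays lay far apart for Tagln, with 12 hrs at the normal level and 24 hrs near the highest. Without the 12 hrs array its difference was -1.14 and that of Tagln2 -0.41, and that of Tagln2 was -0.05 without 48 hrs and -0.02 without 72 hrs, so the data do not settle a direction between phases for either gene.

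**Figure D3:**
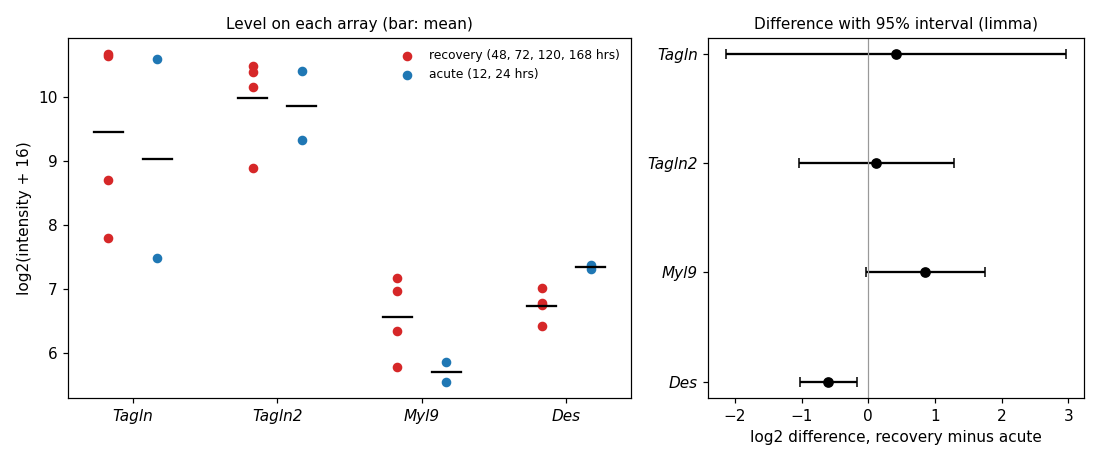
Left, level of the 4 detected genes, as log2(intensity + 16), on the recovery arrays (red, 48 to 168 hrs) and the acute arrays (blue, 12 and 24 hrs), with a bar at the mean. Right, log2 difference of recovery minus acute with its 95% interval from limma: the interval of Des lies below 0 (-1.02 to -0.17), and those of Tagln, Tagln2 and Myl9 include 0.

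The actin cytoskeleton beyond the members was read from 24 contractile and actin-binding genes on the array, of 30 listed. Of the 21 or 22 that were detected on either array, 1, 3, 3, 5, 3 and 1 were at least 2-fold higher than normal at 12, 24, 48, 72, 120 and 168 hrs. At 24 hrs 1 was lower, and at the other times 0. Of all genes detected on either array, 3.16%, 4.55%, 6.04%, 8.28%, 9.09% and 5.01% were higher at those times. Lower were 0.903%, 2.69%, 2.63%, 4.01%, 4.78% and 0.914%. These shares stand beside this and each later list count. The medians of the list were 0.04, 0.38, -0.01, -0.02, -0.09 and -0.06 (log2), so most of its genes lay near normal while a few were higher.

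From 24 to 120 hrs the genes higher than normal included the same 3 at each time: Flna, Tpm4 and Pdlim7. Flna, which encodes the actin crosslinker filamin A, was 1.95-fold, 5.93-fold, 6.38-fold, 6.11-fold, 3.33-fold and 2.07-fold of normal in order of time. Tpm4, a tropomyosin of non-muscle cells, was 1.75-fold, 3.69-fold, 3.75-fold, 4.77-fold, 4.64-fold and 1.99-fold of normal. Pdlim7, an adaptor of the actin cytoskeleton, was higher by 4.40-fold at 24 hrs and by 4.75-fold at 72 hrs. These 3 are widely expressed genes and not markers of smooth muscle. Myh9, a non-muscle myosin heavy chain, was not past the rule at any time (1.38-fold to 1.74-fold of normal), nor was Actg2, the gamma actin of visceral smooth muscle, with differences of -0.59 to -0.02 (log2). The other genes of the list past the rule were Cald1, which encodes the actin-binding caldesmon and was 2.12-fold higher at 72 hrs, Parva, an adaptor between integrins and actin, 2.003-fold higher at 72 hrs, and Synpo2, an actin-binding protein of muscle, which was higher by 2.58-fold at 12 hrs and lower by 2.34-fold at 24 hrs.

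In the PDGF pathway, the other 5 ligand and receptor genes on the array were past the rule at 0 of the 6 times. Pdgfra, the alpha receptor, was below normal by 1.08-fold, 1.24-fold and 1.04-fold at 12, 24 and 48 hrs and above it by 1.76-fold, 1.77-fold and 1.47-fold at 72, 120 and 168 hrs. Pdgfa, which encodes a ligand of that receptor, was 1.04-fold of normal at 12 hrs and 1.20-fold to 1.32-fold lower from 24 to 168 hrs. With Pdgfb under detection and Pdgfrb not on the array, the ligand and receptor that act between endothelium and pericytes were not measured.

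Other pericyte markers moved in both directions. Of 14 on the array, 12 or 13 were detected on either array of a comparison, and 2, 3, 3, 3, 2 and 2 were higher and 1, 1, 2, 2, 2 and 0 lower in order of time, with medians between -0.30 and 0.19 (log2). Anpep was higher than normal at 24, 48, 72, 120 and 168 hrs, by 2.35-fold, 6.66-fold, 8.65-fold, 7.38-fold and 3.02-fold. Gja4, a gap junction protein of vessel walls, was 2.14-fold, 2.25-fold, 2.04-fold and 2.48-fold higher at 12, 24, 48 and 72 hrs. S1pr3, a sphingosine-1-phosphate receptor, was not detected on the normal array and was higher by at least 3.79-fold at 24 hrs and by at least 3.00-fold at 48 hrs, taken against the lowest detected level of the normal array. It was also counted as higher at 12 and 72 hrs, where that fold was at least 1.96 and at least 1.88. Vtn was past the rule at 24, 48 and 72 hrs, when it was lower by 3.87-fold, 2.37-fold and 2.29-fold. The other markers called lower were Rgs4, by 3.34-fold at 72 hrs and 4.13-fold at 120 hrs, and Art3. Art3 was lower by 2.27-fold, 2.20-fold and 2.04-fold at 12, 48 and 120 hrs. On the normal array the level of Rgs4 was 12.09, against 5.58 for Kcnj8 and 6.97 for Abcc9. At 72 and 120 hrs, when Rgs4 was lower, 2 and 4 of the 8 neuronal markers were lower too. Which cells the Rgs4 RNA came from was not tested.

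Of 12 genes of the serum response factor and myocardin pathway on the array, 11 or 12 were detected on either array of a comparison. Among them 2, 3, 1, 3, 1 and 1 were higher than normal in order of time and 0 were lower. Of all genes 3.16%, 4.55%, 6.04%, 8.28%, 9.09% and 5.01% were higher, and a count of 1 in so short a list does not stand apart from these shares. Ccn1, which encodes a matricellular protein induced early by growth factors, was higher at 12, 24, 48, 72 and 120 hrs, by 5.56-fold, 7.62-fold, 2.55-fold, 2.30-fold and 3.05-fold. Klf4, a transcription factor known to repress smooth muscle genes, was higher by 2.59-fold at 12 hrs and by 2.36-fold at 24 hrs. Srf itself was past the rule at no time, at 1.19-fold of normal at 12 hrs and a difference of -0.85 (log2) at 120 hrs. Rhoa passed the rule late, on the arrays of 72 hrs (2.46-fold of normal) and 168 hrs (2.86-fold). Ccn2 was just past it on those of 24 hrs (2.05-fold) and 72 hrs (2.08-fold). The genes of this list thus differed in timing. On the 12 hrs array, where Tagln was at 1.01-fold, Ccn1 and Klf4 were past the rule while Rhoa and Ccn2 were not. A part of this pathway in the values of the members was not tested.

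**Figure D4:**
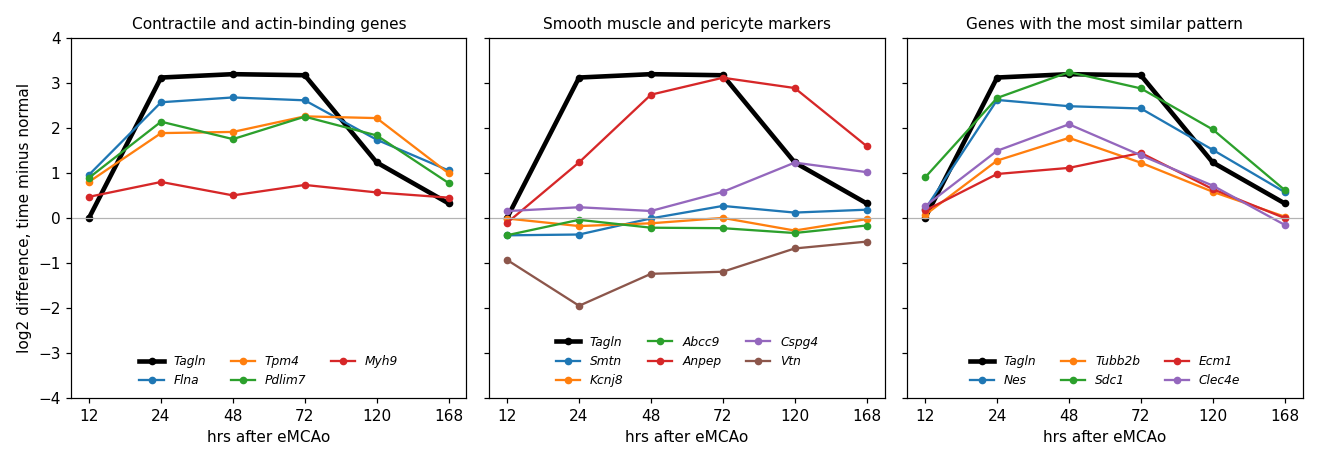
Log2 difference from the normal array (vertical axis) at 12 to 168 hrs after eMCAo (horizontal axis) for Tagln, in black in each panel, with the 4 named contractile and actin-binding genes, with defining smooth muscle and pericyte markers, and with the 5 genes of most similar pattern. Flna, Tpm4 and Pdlim7 are higher from 24 to 120 hrs as Tagln is, Smtn, Kcnj8 and Abcc9 lie between -0.39 and 0.26, Vtn lies below 0 at all times, Anpep reaches 3.11 at 72 hrs and Cspg4 1.23 at 120 hrs. Sdc1 and Clec4e were not detected on the normal array, so their heights depend on an undetected level.

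Markers of other cell types moved with the same arrays, and their part in the values of the members was not tested. Of 8 macrophage markers on the array, 4, 6, 7, 7, 7 and 7 were higher than normal in order of time, and their summed intensity was between 3774 (12 hrs) and 28879 (120 hrs) after eMCAo, against 1932 on the normal array. Of 8 reactive astrocyte markers, 4, 7, 6, 6, 5 and 4 were higher, with sums of 13006 (12 hrs) to 35691 (72 hrs) after eMCAo, against 5167 on the normal array. Both lists already had 4 genes past the rule at 12 hrs, and their sums at 168 hrs, 15462 and 18206, were above those of the normal array. The sums are of deposited intensities, not normalized between arrays, and bright genes weigh most in them. Genes within a list differed in timing: the astrocyte marker Nes was at 1.15-fold of normal at 12 hrs and at 6.14-fold at 24 hrs.

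Of 12 fibroblast and meningeal markers, 0, 2, 2, 6, 7 and 6 were higher and 0, 2, 2, 1, 0 and 0 lower, with list medians of -0.52, -0.50, 0.14, 1.12, 1.60 and 0.98 (log2). The median of the list was highest at 120 hrs. Lum, which encodes the matrix proteoglycan lumican, was below normal by 1.60-fold at 24 hrs and above it by 9.00-fold at 120 hrs. Other genes of the list peaked earlier: Postn, which encodes the matrix protein periostin, was at 2.96-fold, 4.11-fold, 8.67-fold and 4.22-fold of normal at 24, 48, 72 and 120 hrs. Fn1, which encodes fibronectin, was at 3.38-fold, 7.21-fold, 5.07-fold and 2.84-fold at those times. Of 8 endothelial markers detected, 0, 0, 1, 2, 1 and 0 were higher and 2, 1, 1, 1, 1 and 1 lower in order of time. Their summed intensity was between 2626 and 5578 after eMCAo and 5195 on the normal array. Slco1c1 was lower than normal at all 6 times, by 2.13-fold (168 hrs) to 5.38-fold (24 hrs). Vwf was higher by 2.53-fold at 48 hrs and by 4.34-fold at 72 hrs. Of the defining endothelial genes on the array Cdh5 was detected on 0 of 7 arrays and Cldn5, Tek and Tie1 on all 7, and Tie1, a receptor kinase of endothelium, was higher by 2.17-fold at 72 hrs and by 2.49-fold at 120 hrs.

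Among 8 neuronal markers 0 were higher at any time, 2 were lower at 72 hrs and 4 at 120 hrs, with summed intensities of 13174 (120 hrs) to 24626 (12 hrs) after eMCAo and 24658 on the normal array. Of 7 skeletal muscle markers on the array 3 were detected and 0 were higher at any time, and Ckm and Myh4 were detected on 0 arrays. The 1 called lower was Tnnc2, by 2.61-fold, 2.39-fold, 2.57-fold and 2.79-fold at 24, 48, 72 and 120 hrs. Of 5 platelet markers on the array 2 were detected: Pf4, which encodes platelet factor 4, was higher than normal by 4.21-fold at 48 hrs and by 13.1-fold at 120 hrs, and Gp1bb was lower at both, by 3.01-fold and 2.94-fold. Ppbp and Gp9 were detected on 0 arrays.

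**Figure D5:**
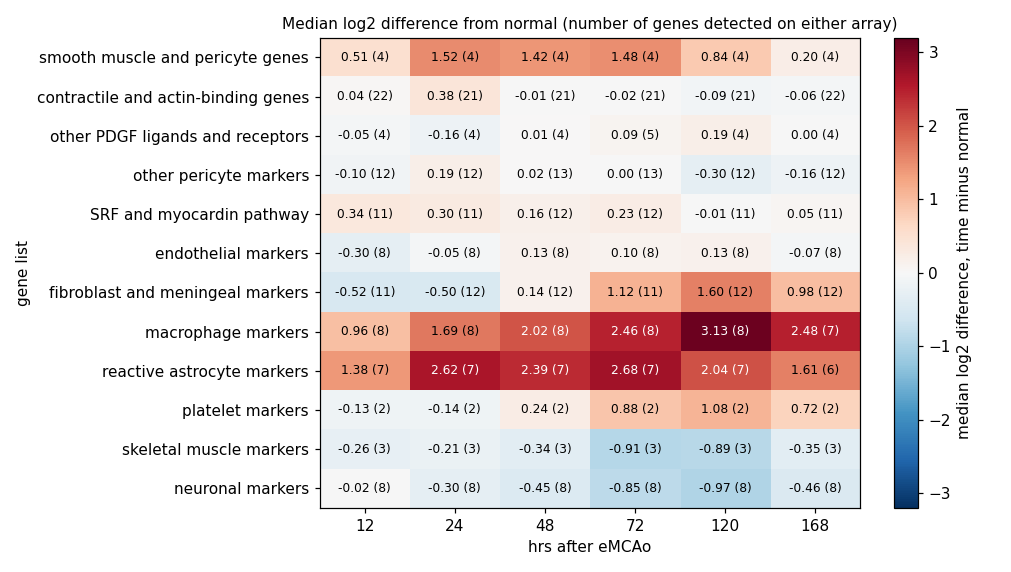
Median log2 difference from the normal array (colour and first number) of the members and of 11 other gene lists (rows) at each time after eMCAo (columns, hrs), with the number of genes detected on either array in parentheses. The member row is highest at 24, 48 and 72 hrs (1.52, 1.42 and 1.48), the astrocyte row already stands at 1.38 at 12 hrs, and the fibroblast row is highest at 120 hrs (1.60).

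Likeness of pattern was measured as Pearson's r over the 7 arrays. A range of at least 1 (log2) and detection on at least 4 arrays were met by 2258 genes. Placeholder symbols (prefix MGC, RGD or LOC) did not enter the ranking, so 2258 is an upper bound on the genes compared. The genes named as most similar to Tagln, Des, Tagln2 and Myl9 are so only among the symbols ranked. The points are 7 single arrays that share 1 chip, so these values are descriptions. The 5 genes most like Tagln were Nes (r = 0.98, rho = 0.89), Tubb2b (0.97 and 0.93), Sdc1 (0.96 and 0.96), Ecm1 (0.96 and 0.86) and Clec4e (0.95 and 0.86). Nes encodes nestin, an intermediate filament protein of neural progenitors and reactive astrocytes and 1 of the 8 astrocyte markers, and it was at 1.15-fold, 6.14-fold, 5.58-fold, 5.39-fold, 2.85-fold and 1.49-fold of normal in order of time. Sdc1, the heparan sulfate proteoglycan syndecan-1, was not detected on the normal array and was at 24, 48, 72 and 120 hrs higher by at least 5.48-fold, 8.15-fold, 6.34-fold and 3.37-fold. Clec4e, also not detected on the normal array, encodes a lectin receptor of myeloid cells. Without normalization between arrays 3 of these 5 genes were again among the 5 most similar, and by Spearman's rho 0 were. The search with Rgs5 was not read, since Rgs5 was detected on 0 arrays.

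The members differed from each other in pattern. Over the 7 arrays r was 0.89 (rho 0.93) between Tagln and Tagln2, 0.65 (0.68) between Tagln and Myl9, 0.37 (0.21) between Tagln and Des and -0.19 (-0.21) between Myl9 and Des. The gene most similar to Des was Inmt (r = 0.98), which encodes a methyltransferase of indoleamines and was at 3.84-fold of normal at 12 hrs and at 1.08-fold at 168 hrs. That for Tagln2 was Mdfic (r = 0.997), 2.55-fold higher at 24 hrs, and that for Myl9 was Slc28a2 (r = 0.97), a nucleoside transporter that was below normal by 1.35-fold at 12 hrs and above it by 2.05-fold at 72 hrs. These 3 genes were looked up after the values of the members were seen. The 4 detected members thus did not share 1 pattern. Des was highest at 12 hrs and Myl9, never past the rule, at 72 hrs. Both transgelins stood high from 24 to 72 hrs, and at 120 hrs Tagln2 was at 3.55-fold, Tagln at 2.35-fold and Myl9 at 1.04-fold of normal.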

How the data were processed

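Messenger RNA was read from 7 single arrays, grouped by their labels. The authors' deposited values were background-subtracted probe intensities on a linear scale; the methods name BeadStudio and the submitters' processing notes GenomeStudio 1.8.0, and a further normalization of these arrays is not stated. Between 20.8% and 21.9% of values were below 0. A table with 48 columns of 12 arrays that matched no sample was not used.

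Background was modelled per array with normexp (saddle) of limma 3.58.1 in R 4.3.3, an offset of 16 entered before the logarithm, and arrays were then quantile normalized. The detection limit was the 98th percentile of the mirrored values below 0, a one-sided p of 0.01 if noise is symmetric. A 2-fold rule of size was used against the normal array, and lmFit and eBayes (trend, robust) between the phases, over genes detected on at least 2 of 6 arrays. Steps were tested on simulated data.

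Probes were named through the platform annotation, 13793 of 22523 with 1 symbol. Members and the 11 gene lists were chosen with earlier results of these data known. Named genes were all members on the array, at most 4 per list, ordered by the size of the mean difference, the 5 genes most like Tagln and Rgs5 by Pearson's r (those for Rgs5 not read), and defining markers. Srf, Actg2, Cald1, Parva, Synpo2, Rgs4 and Art3 were named outside that rule, after their values were seen. The number of arrays limits the precision. Alternatives were other scaling, offset, background, probe summary, size, detection and filter settings, and each array left out.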

Additional observations from a re-analysis of the deposited data

How the results depend on the processing

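No sign of the difference from normal turned for Tagln, Tagln2, Myl9 or Des at any time over the 6 other ways of processing. For these genes, each with 1 probe, the mean of probes repeats the main values. Of the counts and medians over the members, 165 alternative values stayed within the limits set for a change and 12 moved. The median at 72 hrs was 1.796 without normalization between arrays and 1.89 on the authors' values alone, and at 120 hrs 1.18 on the authors' values. At 72 hrs 4 members were higher on the authors' values and 4 at a 1.5-fold limit, at which 1 was lower at 12 hrs. At 24 hrs 3 members were higher, and at 72 hrs 3, with median scaling, without normalization and without further background correction, since Des (24 hrs) and Myl9 (72 hrs) lay near the limit. The number higher at 12 hrs was 0 with an offset of 50. Without the detection filter, which adds Cnn1, Pdgfb and Rgs5, medians were 0.0073, 0.36, 0.42, 0.68 and 0.19 at 12, 24, 48, 72 and 120 hrs, the PDGF list had -0.25 at 120 hrs, and the platelet list turned to -0.080 at 120 hrs. The recovery minus acute difference turned for Tagln without 12 hrs (-1.14) and for Tagln2 without 12 hrs (-0.41), 48 hrs (-0.05) and 72 hrs (-0.02). With each array left out it ran from -1.14 to 1.97 for Tagln, -0.41 to 0.65 for Tagln2, 0.66 to 1.12 for Myl9 and -0.69 to -0.49 for Des. The cause of the other shifts was not tested. No paired analysis was possible because each group had 1 array and the labels carry no replicate numbers.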
